A study of Mus musculus with 12 samples.

Results

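The 8 genes described here, Cd9, Cd37, Cd53, Cd63, Cd81, Cd82, Cd151 and Tspan12, encode tetraspanins that microglia express or are reported to express. They were chosen by name from the 55487 genes of the raw count table, and all 8 passed the filter on low counts that left 15425 genes for testing. The counts came from bulk mRNA sequencing of cells that anti-CD11b beads had captured from enzymatically dispersed cerebral cortex of 12 male mice, with 3 libraries in each of 4 groups and 1 mouse per library. WT mice (C57BL/6J) and App mice (App NL-G-F knock-in, in which the endogenous App gene carries the Swedish, Iberian and Arctic mutations under its own promoter and amyloid plaques form from early adulthood) received 24 intravenous injections over 12 weeks, starting at 9 months of age. The injections held either the PBS vehicle (veh) or 10 mg/kg of the recombinant human chaperone domain rh Bri2 BRICHOS R221E (BRICHOS), and brains were collected 4 weeks after the end of treatment. The groups are therefore WT veh, WT BRICHOS, App veh and App BRICHOS. Every treated or control mouse was aged, injected and perfused, and bead selection on CD11b also retains other cells that carry this integrin.

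Tetraspanins are small proteins that cross the membrane 4 times and hold a short and a large extracellular loop. They bind one another and carry partner proteins such as integrins, immunoglobulin-superfamily proteins and immune receptors into clusters in the plasma membrane, the endosome and the exosome. In brain macrophages they are known as regulators of phagocytosis, adhesion and antigen presentation, and Cd9 and Cd63 belong to the gene programme of microglia that gather around amyloid plaques.

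The large loop of every tetraspanin is marked by a Cys-Cys-Gly motif whose cysteines form disulphide bonds, and the motif is shown for each gene because it is a feature that the 8 proteins share. The coding bases are from the principal transcript of each gene in the GENCODE annotation of GRCm38, 5′ to 3′ on the coding strand, with the 3 codons of the motif in capitals.
Cd9: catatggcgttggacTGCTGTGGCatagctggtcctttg
Cd81: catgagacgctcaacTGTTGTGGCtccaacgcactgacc
Cd37: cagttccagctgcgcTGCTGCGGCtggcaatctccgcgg
Cd53: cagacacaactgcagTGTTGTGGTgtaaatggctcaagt
Cd63: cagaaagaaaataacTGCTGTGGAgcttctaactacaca
Cd82: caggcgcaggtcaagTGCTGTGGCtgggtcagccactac
Cd151: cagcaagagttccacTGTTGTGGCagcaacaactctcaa
Tspan12: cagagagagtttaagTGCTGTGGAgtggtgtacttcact
The motif began between codon 144 (Cd53) and codon 159 (Tspan12) of reading frames of 219 to 305 codons. Over the 28 pairs, the translated reading frames were 19.1% to 44.1% identical, with a median of 27.0%. Cd9 and Cd81 were the closest pair at 44.1%, followed by Cd37 and Cd82 at 35.9%.

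The genes lie at 8 separate places in the genome. Cd9 (ENSMUSG00000030342) spans chr6:125460266-125494791 on the minus strand, with the capitals at chr6:125462189-125462197 in exon 6 of 8. Tspan12 (ENSMUSG00000029669) is on the same chromosome and strand at chr6:21771395-21852515, with its motif at chr6:21795707-21795715 in exon 8 of 9. Chromosome 7 holds 3 of the genes, none of them next to another. Cd37 (ENSMUSG00000030798) is at chr7:45233632-45239115 on the minus strand, with the motif at chr7:45235629-45235637 in exon 6 of 8. Cd151 (ENSMUSG00000025510) is at chr7:141467392-141471473 on the plus strand, with the motif at chr7:141470316-141470324 in exon 6 of 7. Cd81 (ENSMUSG00000037706) is at chr7:143052739-143067934 on the plus strand, with the motif at chr7:143066667-143066675 in exon 6 of 8. The remaining genes lie on chromosomes of their own. Cd53 (ENSMUSG00000040747) is at chr3:106759921-106790149 on the minus strand, with the motif at chr3:106763278-106763286 in exon 6 of 8. Cd63 (ENSMUSG00000025351) is at chr10:128900989-128912822 on the plus strand, with the motif at chr10:128912167-128912175 in exon 6 of 8. Cd82 (ENSMUSG00000027215) is at chr2:93419111-93463140 on the minus strand, with the motif at chr2:93420741-93420749 in exon 8 of 10. Reads of overlapping genes on the other strand could enter the counts, since the strand setting of the counting is not given in the sources used here. Cd9, Cd37, Cd81, Cd151 and Tspan12 share exonic bases with such a gene (218, 13, 104, 193 and 98 bases), whose counts summed to between 1 and 1235 over the 12 libraries. The processed pseudogenes Cd9-ps and Cd63-ps had 106 and 363 counts over the 12 libraries, against 218167 for Cd9 and 81081 for Cd63.

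The libraries held 12433402 to 17889654 counts, so that 3 counts, taken as the detection floor, correspond to 0.168 to 0.241 CPM of the unscaled library size. CPM elsewhere are relative to library sizes scaled by trimmed mean of M values (TMM). The 9 microglia markers were above 0 in every library and summed to 24820 to 30090 CPM, which matched the cell type label. Their levels still differed between the strains: 6 were lower in App veh than in WT veh at an adjusted p of 0.05. Fcrls was higher by 0.41 on the log2 scale, and Aif1 did not pass the test. Of all genes tested, 16.9% were lower and 20.1% higher in that comparison. P2ry12 differed by -1.06, Tmem119 by -1.20, Sall1 by -0.72, Cx3cr1 by -0.44, Csf1r by -0.37 and Itgam by -0.28 on the log2 scale. Other cell types also contributed RNA, and unevenly. The summed CPM of 8 astrocyte markers was 435.0 to 618.9 in WT veh, 435.3 to 808.1 in WT BRICHOS, 1440.0 to 4622 in App veh and 664.7 to 1931 in App BRICHOS. For 7 oligodendrocyte markers it was 9668 to 16930, 4154 to 15590, 3214 to 5635 and 4497 to 6169 in the same order. For 5 border macrophage markers it was 365.4 to 430.0, 487.5 to 592.9, 158.7 to 208.0 and 153.8 to 205.2. For 5 neutrophil markers it was 31.4 to 348, 61.2 to 338, 12.4 to 32.9 and 10.2 to 29.2. For 4 choroid plexus markers it was 841 to 3854, 3191 to 6667, 628 to 1928 and 637 to 952.5. The part of these last cell types in the results was not tested. In bulk RNA, fewer cells of a type and less RNA per cell cannot be told apart.

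Cd81 and Cd9 were the most abundant of the 8 in the bead-captured cells of WT mice, and Cd9 took the first place in App mice. Expressed as CPM per kilobase of the principal transcript, the order in WT veh was Cd81 (740.0 ± 21.7, SD, n = 3), Cd9 (503 ± 35.2), Cd53 (336 ± 16.5), Cd37 (255 ± 13.1), Cd63 (171 ± 8.13), Cd82 (110.4 ± 0.61), Cd151 (38.0 ± 1.06) and Tspan12 (1.75 ± 0.0939). The order in WT BRICHOS was the same. In App veh it became Cd9 (1446 ± 36.9), Cd81 (806 ± 5.42), Cd63 (642 ± 30.9), Cd53 (346 ± 6.73), Cd37 (299 ± 11.1), Cd82 (90.5 ± 5.40), Cd151 (47.1 ± 3.31) and Tspan12 (3.54 ± 1.66), and App BRICHOS had this order too. No neighbours in these orders overlapped between libraries in any of the 4 groups. The places in the middle depend on the length used. Over the union of all annotated exons, Cd53 stood above Cd9 in WT and above Cd63 in App, and Cd63 stood below Cd82 in WT. By that length the WT veh libraries of Cd53 and Cd9 overlapped. That union holds 3682 bases for Cd63, whose principal transcript has 1063.

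**Figure D1:**
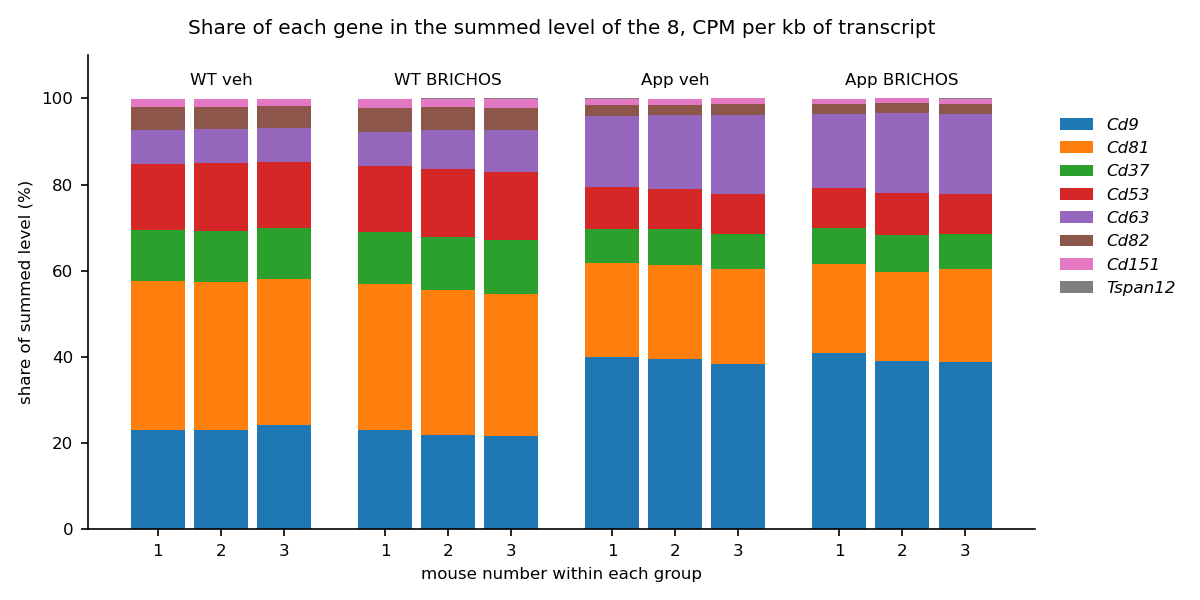
Stacked bars give, for each of the 12 libraries, the share (%) of each gene in the summed level of the 8 genes, as CPM per kilobase of the principal transcript; Tspan12 is too small to see. Cd9 made up 21.7% to 24.1% in the WT libraries and 38.3% to 40.8% in the App libraries, and Cd63 7.81% to 9.56% and 16.7% to 18.6%.

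The make-up of the set therefore differed with the strain. Cd81 supplied 32.9% to 34.8% of the summed level in WT libraries and 20.5% to 22% in App libraries. The share of Cd9 was 23.3% ± 0.693 (SD, n = 3) in WT veh, 22.2% ± 0.700 in WT BRICHOS, 39.3% ± 0.850 in App veh and 39.6% ± 1.08 in App BRICHOS. The share of Cd63 was 7.92% ± 0.0513, 8.80% ± 0.897, 17.5% ± 0.862 and 18.1% ± 0.839 in the same order. The WT and App ranges of the share overlapped for Tspan12 only. The shares of a library add up to the whole, so larger shares of Cd9 and Cd63 leave smaller ones for the others. The share of Cd81 was thus lower in App, although its CPM was higher in every App library than in every WT library.

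The strain comparisons asked how the genes differ between App and WT mice, once under vehicle and once, in the other 6 libraries, under BRICHOS. Cd63 and Cd9 were several times higher in App mice in both, while Cd37, Cd53, Cd81, Cd82 and Cd151 differed little. In App veh against WT veh, 6 of the 8 genes passed an adjusted p of 0.05 (edgeR quasi-likelihood test, Benjamini-Hochberg adjustment over 15425 genes), 5 higher and 1 lower. Of all genes tested, 37% passed, 20.1% higher and 16.9% lower. In App BRICHOS against WT BRICHOS, 6 passed as well, 5 higher and 1 lower, against 42.5% of all genes, 20.8% higher and 21.8% lower. With libraries scaled by total counts alone, 4 of the 8 passed in each comparison, 2 higher and 2 lower under vehicle and 3 higher and 1 lower under BRICHOS. Of all 15425 genes, 7202 and 8598 passed under that scaling. With TMM scaling the median log2 fold change of the 8 was 0.27 in each comparison, beside -0.02 and -0.04 over all genes tested. The libraries of the 2 groups did not overlap for 6 of the 8 genes in either comparison, against 50.9% and 51.7% of all genes. The spread was that between single mice.

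**Figure D2:**
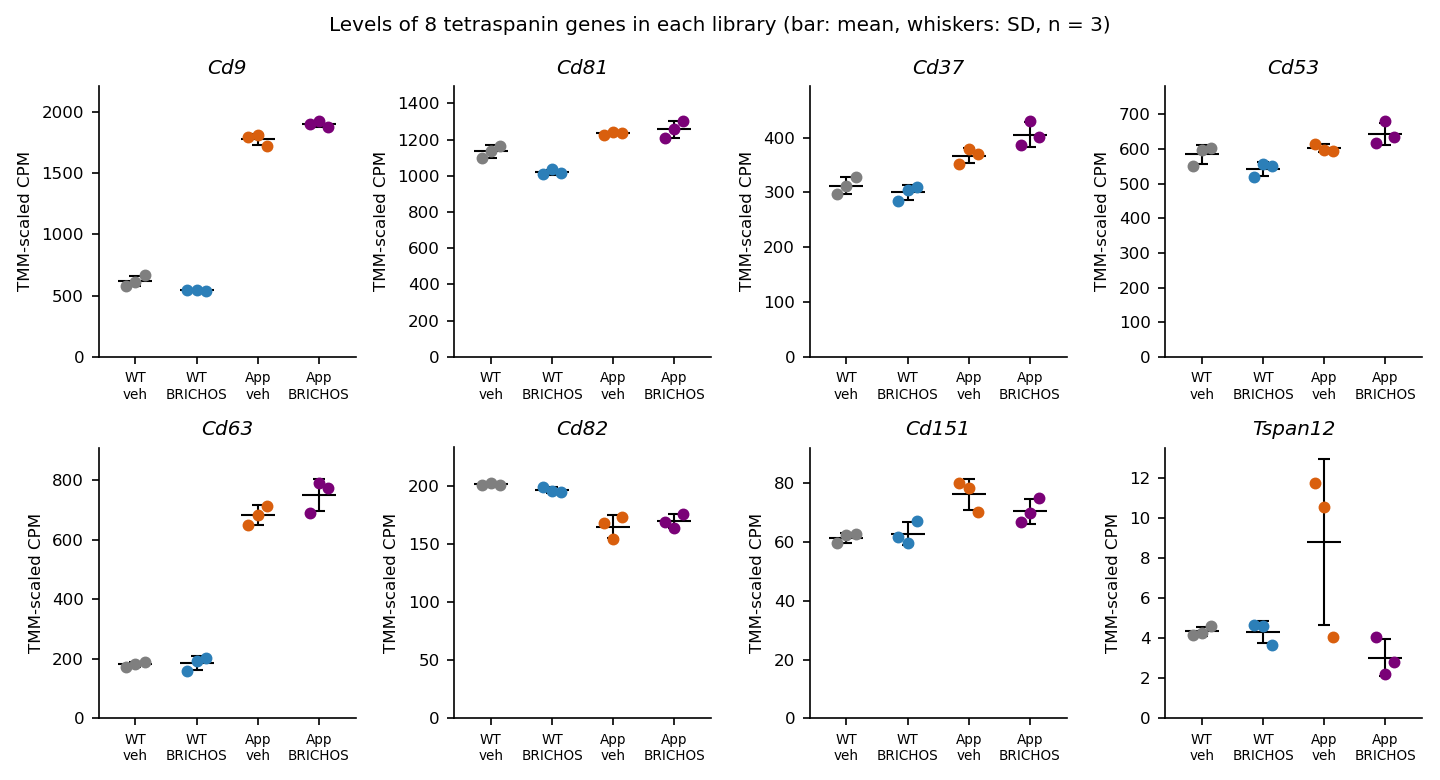
Each panel plots 1 gene, with the TMM-scaled CPM of every library (points), the group mean (bar) and the SD (whiskers, n = 3 mice) for the 4 groups, on an axis that starts at 0. All App libraries lie far above all WT libraries for Cd9 and Cd63, and for Tspan12 only App veh mice 1 and 2 stand apart.

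Cd63 cycles between the late endosome, the lysosome and the surface and is a common marker of exosomes. It measured 172, 183 and 189 CPM in the 3 WT veh mice and 161, 194 and 204 in the WT BRICHOS mice. In App veh it measured 649, 684 and 715 CPM, and in App BRICHOS 689.7, 792 and 773. All 6 App libraries stood far above all 6 WT libraries, with no overlap. Cd63 was 3.77-fold higher in App veh than in WT veh (95% interval 3.29 to 4.32, log2 fold change 1.91, adjusted p = 3.59e-08) and 4.04-fold higher in App BRICHOS than in WT BRICHOS (3.52 to 4.63, log2 2.01, adjusted p = 2.08e-08).

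Cd9 organises adhesion and membrane fusion together with Cd81. Its level was 579.6, 608 and 665 CPM in WT veh and 548, 542 and 536 in WT BRICHOS. App veh mice had 1793, 1809 and 1724 CPM and App BRICHOS mice 1898, 1923 and 1878. The App libraries lay within a narrow band, far from the WT libraries. Cd9 was 2.88-fold higher in App veh than in WT veh (2.63 to 3.14, log2 1.52, adjusted p = 7.08e-09) and 3.5-fold higher in App BRICHOS than in WT BRICHOS (3.21 to 3.83, log2 1.81, adjusted p = 2.40e-09). With the astrocyte marker score as a covariate the log2 fold changes were 1.54 and 1.81 for Cd9 and 1.98 and 2.03 for Cd63. Oligodendrocytes also make Cd9, and their markers summed to fewer CPM in App veh than in WT veh. Their part in the result was not tested.

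The other 6 genes differed by less, and for Cd53, Cd81 and Cd151 the direction depended on the scaling between libraries. When libraries were scaled by total counts alone, a setting chosen after seeing the data, the median log2 fold change of all genes moved from -0.02 to -0.21 in App veh against WT veh and from -0.04 to -0.31 in App BRICHOS against WT BRICHOS. The genes called higher and lower then numbered 2004 and 5198 in place of 3099 and 2611, and 1590 and 7008 in place of 3202 and 3358. Cd9 and Cd63 stayed high under this scaling, at 1.33 and 1.72 under vehicle and 1.54 and 1.74 under BRICHOS.

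Cd81, a partner of Cd9 and of the B cell co-receptor, measured 1099, 1139 and 1165 CPM in WT veh and 1227, 1243 and 1235 in App veh. In WT BRICHOS it measured 1009, 1036 and 1015 CPM and in App BRICHOS 1208, 1259 and 1301. Every App library stood above every WT library, though not by much. The difference under vehicle did not pass the test (log2 0.12, 95% interval 0.01 to 0.23, adjusted p = 0.0707), and with total counts it was -0.07. Under BRICHOS Cd81 was 1.23-fold higher in App (log2 0.30, adjusted p = 0.000510), and 0.03 with total counts (adjusted p = 0.613). DESeq2 on the 12 libraries called the vehicle difference (0.12, adjusted p = 0.0244), and DESeq2 on only the compared groups did not (0.12, adjusted p = 0.0604).

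Cd37 and Cd53 are restricted to blood-derived cells and their tissue relatives. Cd37 measured 296, 312 and 329 CPM in WT veh, 285, 305 and 309.8 in WT BRICHOS, 353, 379 and 369.5 in App veh and 386, 429.7 and 400.3 in App BRICHOS. It was 1.18-fold higher in App veh than in WT veh (log2 0.23, adjusted p = 0.00912) and 1.35-fold higher in App BRICHOS than in WT BRICHOS (log2 0.43, adjusted p = 0.000132). With total counts these were 0.04 (adjusted p = 0.505) and 0.16 (adjusted p = 0.0157). With the astrocyte covariate the vehicle value was 0.31 (adjusted p = 0.0992). The App libraries lay above the WT libraries for Cd37 in both comparisons.

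Cd53 measured 552, 598 and 604 CPM in WT veh, 520.0, 558 and 552 in WT BRICHOS, 616, 598 and 594 in App veh and 617, 680.2 and 635 in App BRICHOS. The vehicle groups overlapped and the BRICHOS groups did not. The difference was 0.04 on the log2 scale under vehicle (95% interval -0.08 to 0.17, adjusted p = 0.564), -0.01 with upper-quartile factors and -0.15 (adjusted p = 0.0273) with total counts. Under BRICHOS it was 0.25 (adjusted p = 0.00443), 0.15 (adjusted p = 0.0557) with upper-quartile factors and -0.03 with total counts.

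Cd82, a suppressor of cell migration, was the gene of the set that was lower in App mice. It measured 201, 203 and 201 CPM in WT veh and 168, 154 and 173 in App veh. In WT BRICHOS it measured 199, 196 and 194 CPM and in App BRICHOS 169, 164 and 176. The 6 WT values lay close together and above every App value. The log2 fold change was -0.29 (95% interval -0.40 to -0.18, adjusted p = 0.000835) under vehicle and -0.21 (-0.32 to -0.10, adjusted p = 0.00500) under BRICHOS, and it was negative under each scaling tried. With the astrocyte score as a covariate the vehicle value was -0.24 (adjusted p = 0.129). The oligodendrocyte and border macrophage marker sums were also lower in App veh than in WT veh, and their part in the result was not tested.

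Cd151, a partner of laminin-binding integrins, measured 59.5, 62.3 and 62.6 CPM in WT veh and 80.1, 78.4 and 70.1 in App veh. In WT BRICHOS it measured 61.7, 59.6 and 67.3 CPM and in App BRICHOS 66.6, 69.7 and 75.1. The vehicle groups were apart and the BRICHOS groups overlapped. Cd151 was 1.24-fold higher in App veh than in WT veh (log2 0.31, adjusted p = 0.00439), with 0.12 (adjusted p = 0.177) under total counts and 0.20 (adjusted p = 0.370) with the astrocyte covariate. Under BRICHOS the difference was 0.16 (95% interval 0.01 to 0.32, adjusted p = 0.0753), and -0.11 under total counts.

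**Figure D3:**
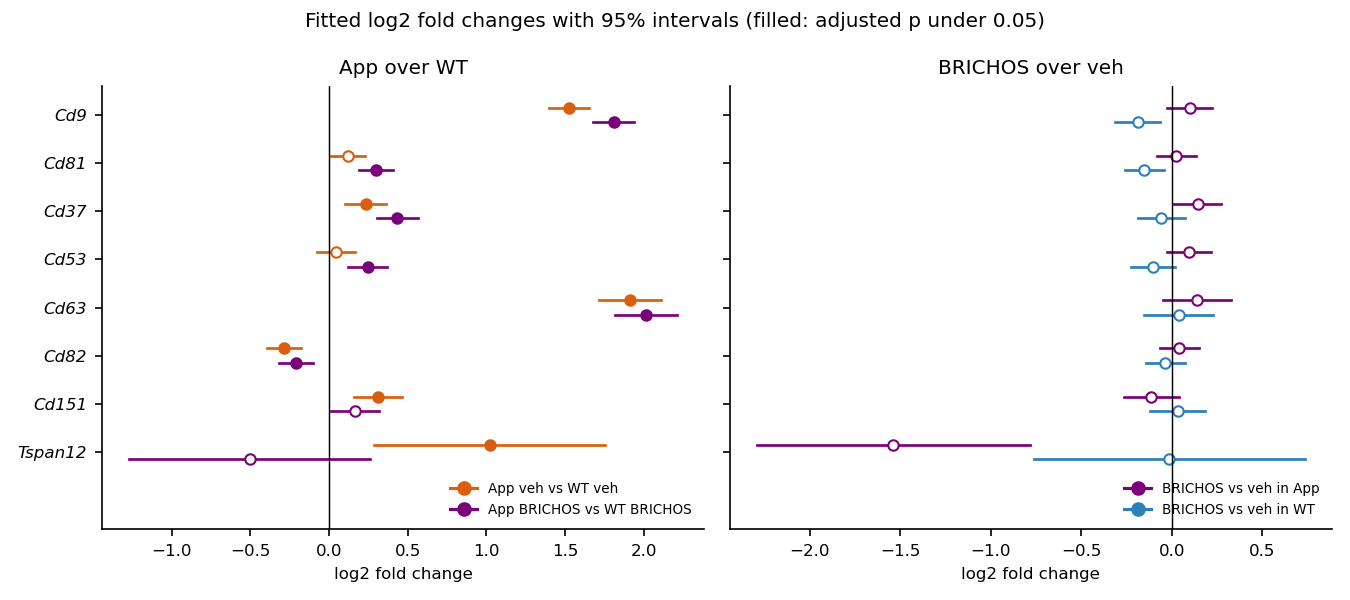
Points give the fitted log2 fold change of each gene (TMM scaling, 12 libraries in the fit) and lines its 95% interval, for App over WT at the left and BRICHOS over veh at the right; filled points passed an adjusted p of 0.05. Cd63 and Cd9 stand at 1.52 to 2.01 at the left, no point at the right is filled, and scaled by total counts Cd53 and Cd81 under vehicle and Cd53 and Cd151 under BRICHOS changed sign.

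The treatment comparisons asked whether BRICHOS moved the genes within a strain. None of the 8 passed in either strain with edgeR. In App mice 1 of 15425 genes passed (0.00648%), and 2 of the 8 had an unadjusted p below 0.05 (Cd37 and Tspan12) against 10.8% of all genes. In WT mice no gene of the table passed (0%), and 2 of the 8 had an unadjusted p below 0.05 (Cd9 and Cd81) against 11.4%. DESeq2 on the same 12 libraries called Tspan12 in App mice and none of the 8 in WT mice, with 119 and 80 genes called in all. The libraries of the 2 groups did not overlap for 4 of the 8 in App mice, against 13.5% of all genes, and for 3 of the 8 in WT mice, against 17.5%.

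In App mice Cd9 was 0.10 (95% interval -0.03 to 0.22), Cd37 0.14 (0.01 to 0.27), Cd53 0.10 (-0.03 to 0.22) and Cd63 0.14 (-0.05 to 0.33) on the log2 scale for BRICHOS over veh. Cd81 was 0.02 (-0.08 to 0.13), Cd82 0.04 (-0.07 to 0.15) and Cd151 -0.11 (-0.26 to 0.04). Apart from Tspan12, these intervals reached no further than 0.33 in either direction. In WT mice Cd9 was -0.19 (-0.31 to -0.06, adjusted p = 0.268) and Cd81 -0.15 (-0.26 to -0.05, adjusted p = 0.286). In every WT BRICHOS mouse Cd9 and Cd81 were below every WT veh mouse, and neither passed after adjustment. The other 6 genes lay between -0.11 and 0.04 in WT.

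Whether the treatment difference itself depends on the strain was tested as the App difference minus the WT difference. None of the 8 passed with edgeR, against 0.00648% of all genes, and 5 had an unadjusted p below 0.05 (Cd9, Cd37, Cd53, Cd81 and Tspan12), against 14.8%. The value was 0.29 for Cd9 (adjusted p = 0.178), 0.20 for Cd37, 0.20 for Cd53 and 0.18 for Cd81 (adjusted p = 0.274 to 0.295 for these 3). DESeq2 called Cd9 (0.30, adjusted p = 0.0158). For these 4 genes App BRICHOS stood a little above App veh and WT BRICHOS a little below WT veh.

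Tspan12 differed from the other 7 in level and in behaviour. It is a component of the receptor complex for norrin, made of the frizzled receptor Fzd4 with Lrp5, and it is known mainly from blood vessels of the retina and brain. It measured 4.18, 4.27 and 4.62 CPM in WT veh and 4.66, 4.62 and 3.66 in WT BRICHOS. The App veh mice had 11.8, 10.6 and 4.08 CPM (182, 161 and 55 counts), and the App BRICHOS mice 4.07, 2.24 and 2.79 (63, 35 and 37 counts). App veh mice 1 and 2 were high, while App veh mouse 3 lay at the level of the WT mice. The group means were 4.36 ± 0.234 (SD, n = 3) in WT veh, 4.31 ± 0.564 in WT BRICHOS, 8.81 ± 4.14 in App veh and 3.03 ± 0.937 in App BRICHOS.

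Tspan12 was 2.03-fold higher in App veh than in WT veh (95% interval 1.22 to 3.37, log2 1.02, adjusted p = 0.0324). This call did not hold in 5 of the 12 fits that each left out 1 library. Without any one of the WT veh mice the log2 value was 0.99 to 1.06 (adjusted p = 0.0650 to 0.0860). Without App veh mouse 1 it was 0.76 (adjusted p = 0.135), without mouse 2 0.87 (adjusted p = 0.109), and without mouse 3 1.36 (adjusted p = 0.000790). With total counts it was 0.83 (adjusted p = 0.0665), and edgeR on only the compared groups gave an adjusted p of 0.0558, so that neither called it. Under BRICHOS the App value was below the WT value, by a log2 fold change of -0.50 (-1.27 to 0.26, adjusted p = 0.270).

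BRICHOS over veh in App mice gave -1.54 for Tspan12 (95% interval -2.29 to -0.78, adjusted p = 0.272), with every App BRICHOS mouse below every App veh mouse although the highest of the former (4.07 CPM) lay next to the lowest of the latter (4.08 CPM). DESeq2 on the 12 libraries called it at -1.52 (adjusted p = 0.00874), DESeq2 on only the compared groups did not (-1.54, adjusted p = 0.0508), and edgeR without App veh mouse 3 called it at -1.88 (adjusted p = 0.0168). In WT the value was -0.01 (-0.76 to 0.73). The difference of the 2 treatment effects was -1.52 (-2.58 to -0.46, adjusted p = 0.214), and -1.86 (adjusted p = 0.0396) without App veh mouse 3. The study listed Tspan12 among genes picked from these same libraries for a rise in App veh over WT veh and a change with BRICHOS. Neither its treatment values nor its strain difference under vehicle are therefore independent evidence.

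In App mice astrocyte markers moved with Tspan12. Their summed CPM was 4622 and 4126 in App veh mice 1 and 2, where Tspan12 was high, and 1440.0 in mouse 3. In App BRICHOS it was 1931, 664.7 and 1273, in the order in which Tspan12 was 4.07, 2.24 and 2.79. The WT libraries ran the other way. In WT veh the sums were 618.9, 580.8 and 435.0 beside 4.18, 4.27 and 4.62 CPM of Tspan12, and in WT BRICHOS 435.3, 803.9 and 808.1 beside 4.66, 4.62 and 3.66. All 8 astrocyte markers were higher in App veh than in WT veh at an adjusted p of 0.05 (20.1% of all genes were). All 8 were lower in App BRICHOS than in App veh at an unadjusted p of 0.05, with none passing after adjustment. Of all genes, 10.8% had such an unadjusted p in either direction. With the astrocyte marker score as a covariate, Tspan12 was -0.39 (adjusted p = 0.676) in App veh against WT veh and -0.75 (adjusted p = 1) for BRICHOS over veh in App. In App BRICHOS against WT BRICHOS that fit gave -0.96 (adjusted p = 0.0240). The markers of endothelial cells, which also make Tspan12, summed to 659.6 to 743 CPM in WT veh, 562 to 802 in WT BRICHOS, 472 to 638 in App veh and 387 to 443 in App BRICHOS. Flt1, the largest part of these sums at 237 CPM in WT veh and 291 in App veh, did not pass. The other 6 of the 7 were lower in App veh than in WT veh at an adjusted p of 0.05 (16.9% of all genes). In App BRICHOS 6 of the 7 were lower than in App veh at an unadjusted p of 0.05 (10.8% of all genes had such a p), with none passing after adjustment. The astrocyte score differed between the strains, so the covariate fit cannot separate astrocyte content from strain, and no endothelial score was fitted. The part of either cell type in the result was not tested.

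**Figure D4:**
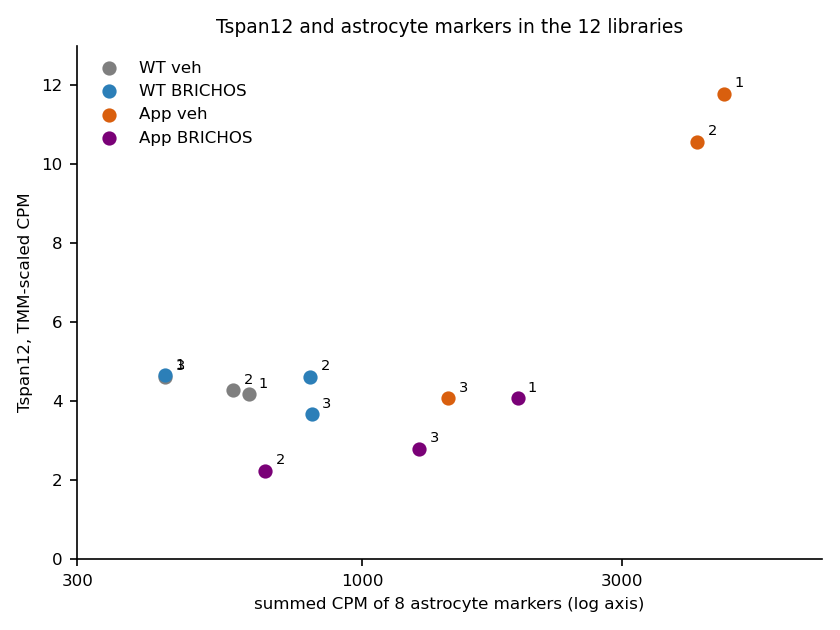
Each point is 1 of the 12 libraries, with the summed CPM of 8 astrocyte markers on a log axis, the TMM-scaled CPM of Tspan12 on an axis from 0, and the mouse number beside it. App veh mice 1 and 2 stand alone at 4126 to 4622 and 10.6 to 11.8 CPM, and the other 10 libraries lie between 2.24 and 4.66 CPM of Tspan12.

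The tested genes whose profiles over the 12 libraries came closest were found by the root mean square difference of log2 CPM after each gene was centred on its own mean. For Cd63 they were Mif (0.0813), a cytokine, Glb1 (0.0821), the lysosomal beta-galactosidase, and Ctsl (0.0847), a lysosomal protease. For Cd9 they were Cadm1 (0.0790), an adhesion molecule, Anxa5 (0.0831), which binds phosphatidylserine, and Trem2 (0.0857), a lipid receptor of microglia. These 6 genes were 1.46 to 1.91 higher on the log2 scale in App veh than in WT veh, as their choice by profile required. For Tspan12 they included Tnfrsf19 (0.208) and Slc1a4 (0.234), so that the nearest profiles of Tspan12 lay farther from it than those of Cd63 and Cd9 from theirs. Tspan12 had only 35 to 182 counts per library, far fewer than Cd63 and Cd9, so counting error adds more to its distances. Tnfrsf19 averaged 16.1 CPM in WT veh, 17.7 in WT BRICHOS, 29.6 in App veh and 14.1 in App BRICHOS.

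Beyond the 8, the table lists 23 other tetraspanin genes, of which 18 were tested and Tspan1, Tspan10, Tspan11, Upk1a and Prph2 were too low. In App veh against WT veh 12 of the 18 passed, 7 higher and 5 lower, against 37% of all genes, with a median log2 fold change of 0.12. In App BRICHOS against WT BRICHOS 10 passed, 5 in each direction, against 42.5% of all genes, with a median of -0.17. Among all 26 tested tetraspanins, Cd63 and Cd9 had the highest log2 fold changes in both comparisons.

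**Figure D5:**
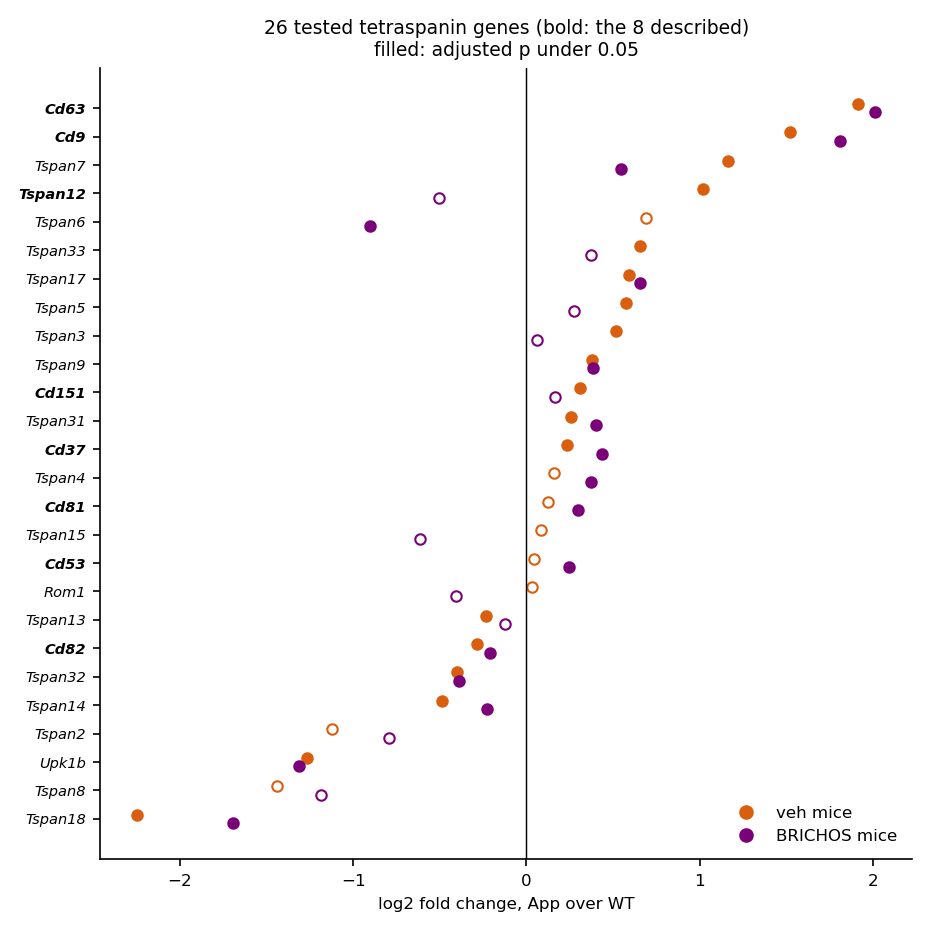
Points give the log2 fold change of App over WT for the 26 tested tetraspanin genes, in veh mice (orange) and in BRICHOS mice (purple), filled where the adjusted p was under 0.05 and ordered by the value in veh mice. Cd63 and Cd9 are at the top at 1.52 to 2.01, and Tspan18 is at the bottom at -2.25 and -1.69.

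Tspan18 fell most. It measured 47.6, 49.4 and 51.2 CPM in WT veh and 10.5, 9.91 and 10.8 in App veh, with no overlap (log2 -2.25, adjusted p = 4.30e-09), and it was -1.69 in App BRICHOS against WT BRICHOS (adjusted p = 2.53e-08). Upk1b, known as a tetraspanin of the bladder lining, was at 112, 117 and 112 CPM in WT veh and 47.4, 48.6 and 46.0 in App veh (log2 -1.26, adjusted p = 2.65e-06). Both genes were thus lower in App by more than Cd82 was. In App mice Tspan18 also had the lowest p of the 18 for BRICHOS over veh (0.37, adjusted p = 0.272), with 13.5, 14.5 and 12.2 CPM in App BRICHOS.

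Tspan7 was the tetraspanin outside the 8 with the highest rise. It measured 188, 182 and 157 CPM in WT veh and 479, 451 and 250.3 in App veh (log2 1.16, adjusted p = 0.000925). As for Tspan12, App veh mice 1 and 2 were high and mouse 3 lower, together with the astrocyte marker sums, whose part in the result was not tested. App BRICHOS mice had 292, 217 and 257 CPM, and BRICHOS over veh gave -0.62 (adjusted p = 0.311). In WT mice the lowest p values of the 18 for BRICHOS over veh were those of Tspan14 (-0.21, adjusted p = 0.243) and Tspan18 (-0.19, adjusted p = 0.381).

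The TspanC8 tetraspanins carry the sheddase Adam10 out of the endoplasmic reticulum and choose its substrates. Of 6 genes, 5 were tested and 4 passed in App veh against WT veh, 3 higher and 1 lower, against 37% of all genes. Tspan33 was 0.66 (adjusted p = 0.00410), Tspan17 0.59 (adjusted p = 0.0326) and Tspan5 0.57 (adjusted p = 0.00562) on the log2 scale. Tspan14, the most abundant of them at 309.6 ± 9.51 CPM (SD, n = 3) in WT veh and 221 ± 11.3 in App veh, was lower (-0.48, adjusted p = 3.88e-05). In App BRICHOS against WT BRICHOS 2 of the 5 passed (42.5% of all genes), Tspan17 at 0.65 (adjusted p = 0.0165) and Tspan14 at -0.22 (adjusted p = 0.00667), while Tspan33 was 0.37 (adjusted p = 0.0559) and Tspan5 0.27 (adjusted p = 0.118). Under vehicle Adam10 itself was lower, at 336 ± 6.77 and 266 ± 5.35 CPM (-0.33, adjusted p = 9.55e-05). Mmp14, a membrane metalloprotease that binds tetraspanins, was higher (0.46, adjusted p = 0.00394), and Adam17 was -0.03 (adjusted p = 0.654). In App BRICHOS against WT BRICHOS all 3 of these passed, 2 higher and 1 lower (42.5% of all genes). Adam17 was 0.17 (adjusted p = 0.0229), Mmp14 0.27 (adjusted p = 0.0472) and Adam10 -0.23 (adjusted p = 0.00114).

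Of the partners of Cd9 and Cd81 in the immunoglobulin superfamily, 2 of 4 passed under vehicle, both higher, and 4 of 4 under BRICHOS, 2 in each direction (37% and 42.5% of all genes). Ptgfrn rose from 64.8 ± 4.74 to 106.0 ± 10.5 CPM (log2 0.71, adjusted p = 3.39e-05) and Igsf8 from 74.9 ± 4.16 to 104 ± 2.48 (0.47, adjusted p = 4.28e-05). Under BRICHOS the differences between App and WT were 0.93 and 0.66 (adjusted p = 3.57e-06 and 2.86e-06). These are the proteins that bind Cd9 and Cd81 directly. Of 5 integrin chains 2 passed under vehicle (37% of all genes), with Itga5, the fibronectin receptor chain, at 39.8 ± 2.92 CPM in WT veh and 143 ± 42.9 in App veh (1.84, adjusted p = 6.62e-05) and Itga6, the laminin receptor chain that binds Cd151, at -0.20 (adjusted p = 0.0309). Under BRICHOS 3 of the 5 passed, 1 higher and 2 lower (42.5% of all genes). The higher one was Itga5 at 1.90 (adjusted p = 5.09e-05), while Itga6 was 0.01 (adjusted p = 0.879).

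Among 6 genes of exosome and endosome sorting, 4 passed under vehicle, 3 higher and 1 lower (37% of all genes), and 3 under BRICHOS, all higher (42.5%). Sdcbp, the syntenin that binds the tail of Cd63, rose from 341 ± 12.1 to 488 ± 11.9 CPM (log2 0.52, adjusted p = 0.000753). Pdcd6ip, the syntenin partner ALIX, was 0.23 (adjusted p = 0.00385) and Vps4b -0.15 (adjusted p = 0.0436), with Vps4b at -0.01 (adjusted p = 0.893) under BRICHOS. Timp1, which binds Cd63, passed too, but its mean in WT veh, 0.0872 CPM, lay below the floor of 3 counts, and no fold is given. Of the norrin receptor genes, Fzd4 (-0.65, adjusted p = 0.00297) and Lrp5 (-0.35, adjusted p = 0.000780) were lower in App veh than in WT veh. Tspan12 was above the WT veh mice in App veh mice 1 and 2 only. Most endothelial markers were also lower in App veh, and their part in these values was not tested. The ligand Ndp was at 1.37 ± 0.594 CPM in WT veh and 4.59 ± 3.05 in App veh (1.75, adjusted p = 0.0242), and Lrp6 did not pass. Of these 4, 3 passed under vehicle (37% of all genes) and 2 under BRICHOS (42.5%), Fzd4 at -0.92 and Lrp5 at -0.26, and Ndp was -0.47 (adjusted p = 0.515).

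All 4 immune receptors listed for tetraspanin complexes differed between App veh and WT veh, 3 higher and 1 lower, against 37% of all genes. Clec7a (dectin-1), a receptor that Cd37 holds at the membrane, rose from 67.4 ± 3.66 to 1062 ± 115 CPM (log2 3.98, adjusted p = 4.30e-09). The class II chains H2-Aa and H2-Ab1, which meet Cd63 and Cd82 in the endosome, were 2.48 and 2.32 higher (adjusted p = 2.62e-05 and 2.10e-05). Cd36, a scavenger receptor, was lower by a log2 fold change of -0.96 (adjusted p = 0.000124). None of the tested genes of these partner and family lists passed for BRICHOS over veh in either strain. Values of these lists are from the main fit with TMM scaling only. Small ones, such as those of Pdcd6ip, Vps4b and Itga6, could depend on the scaling, as that of Cd37 did.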

How the data were processed

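Raw gene counts of 12 libraries, 3 mice per group, were analysed. The authors made the deposited counts by trimming reads with Cutadapt, aligning them to GRCm38 with STAR (2.6.1d per the labels, while the methods name another version) and counting per gene with featureCounts (1.5.1), without normalisation. Groups and mouse numbers were taken from the sample labels.

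Counts were tested with edgeR 4.0.16 in R 4.3.3 (filterByExpr with a minimum count of 10, TMM factors, glmQLFit and glmQLFTest, a mean for each of the 4 groups over all 12 libraries, 8 residual degrees of freedom). P-values were two-sided and Benjamini-Hochberg adjusted over 15425 genes, and an adjusted p under 0.05 counted as passing. The study used DESeq2 Wald tests, which were run as alternatives (DESeq2 1.42.0). Log2 CPM for profiles used a prior count of 2. Other scalings, filters, a replicate block, an astrocyte score (mean log2 CPM of the 8 markers) and each library left out were tried. The fit was tested on simulated counts. No libraries of a group agreed within sampling noise (chi-square per degree of freedom 5.39 to 31). Library sizes limit the precision of low genes, and the floor of 3 counts covers counting error only.

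Gene symbols were matched for 55141 of the 55487 identifiers. Positions, lengths and coding bases are from GENCODE annotation of GRCm38, and reading frames were aligned pairwise after translation (Biopython 1.88). Named were all 8 genes and the microglia markers. Of each family or partner list, up to 5 genes were named, taken by size of change from those passing in App veh against WT veh. Of the other tetraspanins, the 2 with the lowest p in each treatment comparison were added. The 3 nearest profiles were taken for the 3 of the 8 genes that changed most. A microglia marker and a nearest profile are not reported here. Tspan31, Tspan9, Tspan32, Tspan13 and Tspan3 also passed and are counted only. The 8 genes, the lists and the tests were chosen with earlier results of these data known.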

Additional observations from a re-analysis of the deposited data

How the results depend on the processing

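The log2 fold changes of Cd63 and Cd9 between App and WT passed the threshold under every alternative run, from 1.72 to 1.98 for Cd63 and 1.33 to 1.58 for Cd9 under vehicle. With 3 mice per group and the replicate number naming different animals, the design limits small effects, and for Tspan12 single libraries decided the calls. The astrocyte score is itself measured from these libraries and differs between the strains, so that a fit with it cannot separate the 2. The causes of the changes below were not tested.

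With the astrocyte score as a covariate, 2 of the 8 genes passed in App veh against WT veh in place of 6 (1877 genes of the table in place of 5710), and Tspan12 turned to -0.39. DESeq2 on all libraries called 1 of the 8 for BRICHOS over veh in App and 1 for the difference of treatment effects, with 119, 80 and 244 genes of the table in the App, WT and difference comparisons in place of 1, 0 and 1. Without a low-count filter those were 25, 12 and 107, and DESeq2 on only the compared groups called 48 in App and 134 in WT. Leaving out 1 library at a time, 0 to 1 of the 8 passed for BRICHOS over veh in App and 0 to 1 for the difference, the 1 being Tspan12 without App veh mouse 3 (162 and 88 genes of the table).

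Scaling by total counts, chosen after seeing the data, turned Cd53 to -0.15 and Cd81 to -0.068 in App veh against WT veh, Cd53 to -0.027 and Cd151 to -0.11 in App BRICHOS against WT BRICHOS, Cd81 to -0.024 and Cd82 to -0.0078 for BRICHOS over veh in App, Tspan12 to 0.019 in WT and Cd82 to -0.0031 for the difference. Upper-quartile factors turned Cd53 to -0.012 under vehicle and Tspan12 to 0.022 in WT, and a minimum of 10 counts in every library turned the latter to 0.0052. With 1 library left out, uncalled values near 0 changed sign: Cd81 (-0.00045 to 0.053) and Cd82 (-0.0064 to 0.078) in App, and Cd63 (-0.034 to 0.13), Cd151 (-0.020 to 0.067) and Tspan12 (-0.075 to 0.091) in WT for BRICHOS over veh.

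With the replicate block, 7 of the 8 passed in App veh against WT veh (Cd81 added at 0.12, adjusted p = 0.0401 from edgeR) and 6, 0, 0 and 0 in the other comparisons. In that fit 5991 of 15425 genes passed in App veh against WT veh and 6822 in App BRICHOS against WT BRICHOS. The mouse numbers pair no animals: deviations of same-numbered libraries correlated at 0.0564 to 0.174 under vehicle and -0.0148 to 0.218 under BRICHOS. Of the single-gene values under alternatives, 821 kept direction and side of the threshold, 19 changed sign, 14 lost and 10 gained a call.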
